A study of Rattus norvegicus with 24 samples.

Results

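The 9 genes followed here mark mature B cells: Ms4a1, Cd79a, Cd79b, Pax5, Fcrla, Faim3, Cd22, Blk and Blnk. They were found by gene name among the array's probes that are not controls. Of the 9 genes, 8 had a probe under their name, on an array of 30367 probes and 25885 gene names, and Fcrla had 2 probes. No probe carried the name of Cd79a, which is therefore not analysed here. Faim3 is the older symbol of Fcmr.

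Blood RNA of single male Sprague Dawley rats was hybridised with a common reference RNA, 1 rat for each of 24 two-colour arrays. The 6 groups held 4 arrays each. The rats were 8 weeks old at the start and ate a semi-synthetic diet for 6 weeks. Diet G0 had no beta-glucan. Diet G1 held 1% (w/w) oat beta-glucan of high molecular weight, and diet G2 held 1% oat beta-glucan of low molecular weight. The LPS rats of each diet (LPS-G0, LPS-G1, LPS-G2) received lipopolysaccharide, a component of the bacterial wall, at 10 mg/kg into a vein, 2 times and 7 days apart. The control rats (C-G0, C-G1, C-G2) had saline instead. Nothing in the labels says more of how the rats were allotted, so p-values measure the spread between these single rats. The reference was a pool of RNA from other rats of the experiment. The dyes were not swapped between rat and pool. A value near 0 is thus only roughly the level of the pool, and groups are compared with each other. All values are the log2 ratio of the rat's signal (Cy3) over the reference signal (Cy5), and probes were not ranked against each other. For LPS-G0 replicates 3 and 4, another field of the labels says control, while their titles say LPS. They were kept in LPS-G0.

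A mature B cell carries an antibody in its membrane, which signals inward through the paired chains Cd79a and Cd79b. Blk, a kinase of the Src family, and Blnk, an adaptor protein, act at the next steps of that signal. Cd22 is a lectin of the B cell surface that damps it. Ms4a1 (CD20) is a membrane protein used as a marker of B cells, and Fcmr binds the constant part of IgM. Fcrla is a protein related to Fc receptors that stays inside B cells. Pax5 is the transcription factor that holds cells in the B lineage, and Cd79a, Blnk and other B cell genes are among its targets. In blood, B cells are a part of the lymphocytes, next to T cells, granulocytes, monocytes, platelets and the abundant red cells. In RNA of whole blood, fewer B cells and less RNA per B cell cannot be told apart.

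The probes on which the results below turn most are shown as 60 bases of the transcript strand, in lower case throughout. They were chosen because their levels differ in pattern (Ms4a1, Cd79b and Pax5) or because the level is near background (Blnk). Positions are those of the rn4 build in the files.
Ms4a1, chr1:213764136-213764195, minus strand: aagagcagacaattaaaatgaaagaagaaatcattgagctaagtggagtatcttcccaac
Cd79b, chr10:95703614-95703673, minus strand: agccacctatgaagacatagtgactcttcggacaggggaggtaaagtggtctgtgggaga
Pax5, chr5:61089642-61089701, minus strand: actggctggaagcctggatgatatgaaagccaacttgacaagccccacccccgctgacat
Blnk, chr1:246099688-246102499, minus strand, in pieces over 2812 bases: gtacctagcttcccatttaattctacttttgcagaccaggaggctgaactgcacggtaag

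Promoters of 5 of the 9 genes were matched in the RefSeq table for the GRCr8 build. Those of Fcmr (Faim3), Fcrla and Blnk are shown because the levels of these genes moved together with Cd79b over the arrays. Each run is the 250 bases before the start of the gene, 5′ to 3′ on the gene's strand. Capitals mark matches, on either strand, to 3 motifs of factors active in B cells: the octamer ATGCAAAT, the PU box GAGGAA and the E2A site CAGGTG.
Fcmr, chr13:44889430-44889679, plus strand: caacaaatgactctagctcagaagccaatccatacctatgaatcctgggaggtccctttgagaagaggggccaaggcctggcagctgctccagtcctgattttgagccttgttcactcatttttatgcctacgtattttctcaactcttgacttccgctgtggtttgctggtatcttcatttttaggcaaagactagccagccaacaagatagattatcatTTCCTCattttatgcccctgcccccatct
Fcrla, chr13:85702827-85703076, minus strand: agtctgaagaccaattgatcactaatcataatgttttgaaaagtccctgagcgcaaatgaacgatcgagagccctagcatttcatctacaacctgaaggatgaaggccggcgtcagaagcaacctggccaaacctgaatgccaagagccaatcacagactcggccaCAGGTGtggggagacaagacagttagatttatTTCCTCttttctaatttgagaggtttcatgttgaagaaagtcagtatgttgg
Blnk, chr1:249770534-249770783, minus strand: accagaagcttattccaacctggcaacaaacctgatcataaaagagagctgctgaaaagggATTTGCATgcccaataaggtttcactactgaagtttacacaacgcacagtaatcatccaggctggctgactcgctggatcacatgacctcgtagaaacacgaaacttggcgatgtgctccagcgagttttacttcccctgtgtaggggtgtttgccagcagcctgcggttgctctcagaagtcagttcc
The PU box was found in 4 of the 5 promoters (Cd22, Cd79a, Fcmr and Fcrla), and in 23.3% of all 33469 promoters of the table. In Fcmr it lay 29 to 24 bases before the start, and in Fcrla 52 to 47 bases before it. The E2A site was found in Cd79a and Fcrla, and in 15.9% of all promoters. The octamer was found in Blnk, 189 to 182 bases before the start, and in 1.56% of all promoters. The site of the factor EBF (TCCC and GGGA with any 2 bases between) was found in 0 of the 5 promoters and in 0.738% of all of them. None of the marked matches overlapped another. A match of letters is a description of the sequence and not a bound site.

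Of the 8 genes, 5 were bright enough to be tested in every comparison. The probes of Ms4a1, Cd79b, Pax5, Fcrla (both) and Faim3 were well above background in Cy3 on 24 of 24 arrays. Blnk was well above background on 13 of 24 arrays, and on all 4 arrays of C-G1 only, so it entered the fit of 24 arrays but not the fit of 16. It passed through C-G1 alone, the group where it was highest, so its differences are given as values only and it is left out of the counts and medians of members. Only the counts and medians recomputed under other processing, at the end, include it in the fit of 24 arrays. Cd22 was well above background on 6 arrays, 1 in each group, all of them on slide 3. Blk was so on 3 arrays. Neither entered a fit, and their values are given without a test across probes. No member probe was saturated.

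Arrays differed in how many probes stood well above background, from 7786 to 15385. They lay on 3 slides of 8 that each held all 6 groups, and slide 3 had the highest median number of such probes (13532, against 11202 on slide 1 and 10562 on slide 2). Diet was not balanced over the slides. Both G0 groups had 2 arrays on slide 1, both G1 groups 2 on slide 2 and both G2 groups 2 on slide 3, with 1 on each other slide. Differences between diets and between slides can thus not be fully told apart. One array stood apart before any comparison. C-G0 replicate 1 had the lowest value of all 24 arrays for Cd79b, Faim3, Blk, Blnk and the second Fcrla probe, and the highest for Pax5. On the same array the markers of NK and cytotoxic cells (7 genes) averaged −1.40 and those of T cells (12 genes) −0.43, each the lowest of C-G0. The members' values against C-G0 are therefore also given without it.

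**Figure D1:**
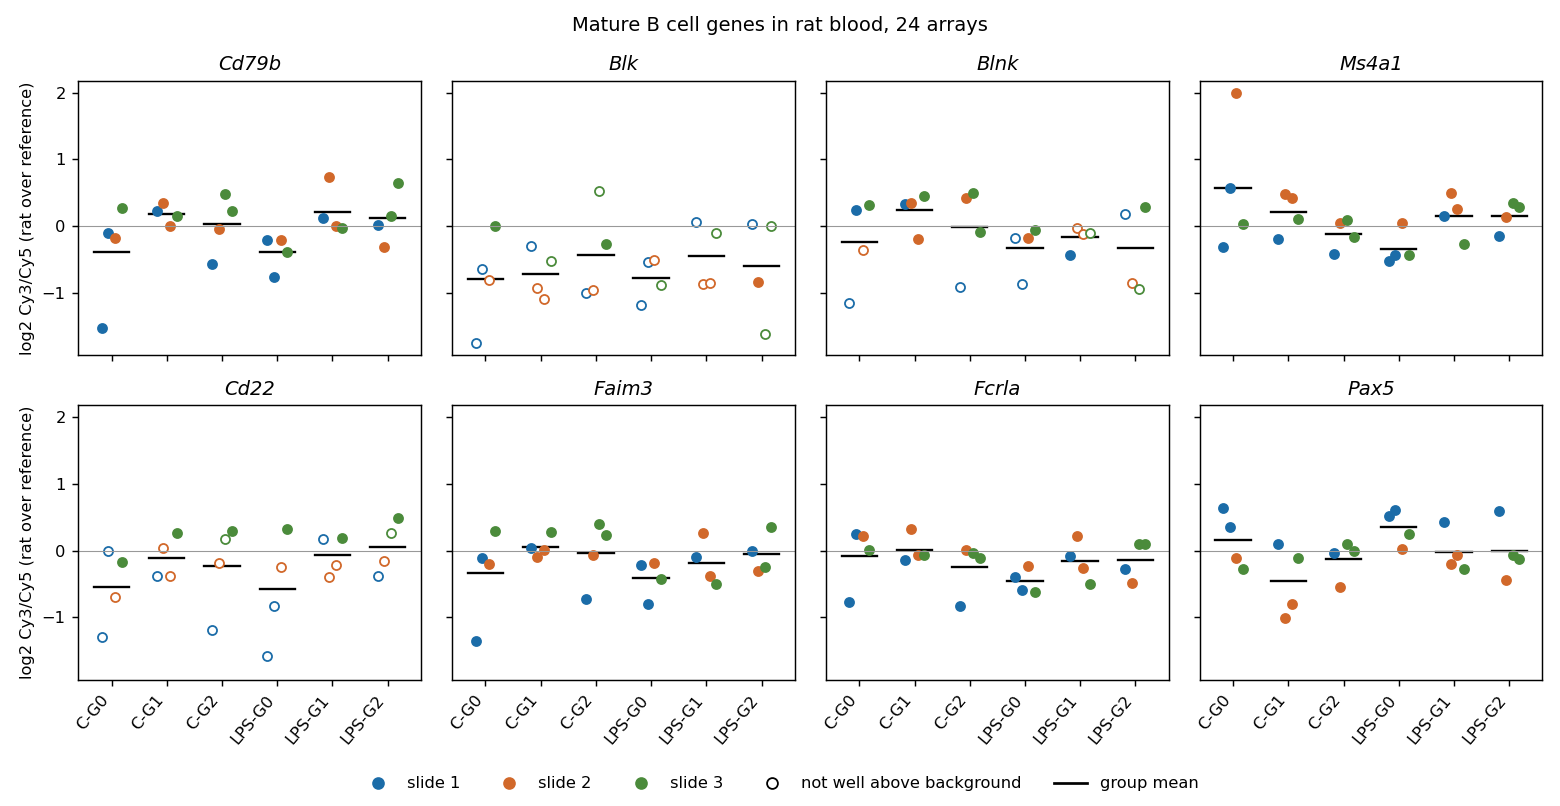
Log2 ratio of rat over reference (Cy3/Cy5) for the 8 genes with a probe, by group, with 1 point per array (n = 4 per group), coloured by slide. Bars are group means and open points were not well above background. C-G0 replicate 1 lies at −1.52 for Cd79b and −1.35 for Faim3, C-G0 replicate 3 lies at 1.99 for Ms4a1, and the mean of Pax5 is highest on slide 1.

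Cd79b, the signalling chain of the B cell receptor, overlapped between the groups in 8 of the 9 comparisons of 2 groups. The 4 rats of C-G0 had log2 ratios of −1.52, −0.10, −0.18 and 0.27, and those of C-G1 had 0.23, 0.35, 0.00 and 0.15. In LPS-G0 they were −0.20, −0.76, −0.21 and −0.39, all below 0. In LPS-G1 they were 0.13, 0.73, 0.01 and −0.02, and every one lay above every rat of LPS-G0. In LPS-G2 they were 0.02, −0.31, 0.15 and 0.65, which overlapped LPS-G0 through 1 rat. Group means ran from 0.21 ± 0.35 (SD, n = 4) in LPS-G1 down to −0.39 ± 0.26 in LPS-G0.

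Blnk, the adaptor, ranged from −1.15 in C-G0 replicate 1 to 0.50 in C-G2 replicate 3. C-G1 had the highest mean, 0.24 ± 0.29 (SD, n = 4), from rats at 0.34, 0.35, −0.20 and 0.45. The lowest means were those of LPS-G2 (−0.33 ± 0.66) and LPS-G0 (−0.32 ± 0.37). Blk, the kinase, ranged from −1.75 in C-G0 replicate 1 to 0.52 in C-G2 replicate 3. Its group means lay between −0.80 and −0.43, with SDs from 0.32 to 0.79. Most of these values come from signals not above background and give no order of groups.

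Among the surface proteins, Ms4a1 had the widest range of the tested genes. In C-G0 its log2 ratios were −0.31, 0.58, 1.99 and 0.03. Replicate 3 of C-G0 was the highest of all 24 arrays, and that array also had the fewest probes well above background, 7786. In LPS-G0 the values were −0.53, −0.43, 0.05 and −0.44, the lowest group mean (−0.34 ± 0.26, n = 4). Rats of LPS-G1 had 0.15, 0.49, 0.26 and −0.27, and rats of LPS-G2 had −0.15, 0.14, 0.35 and 0.29. In both of these groups 3 of 4 rats lay above every rat of LPS-G0.

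Faim3, the IgM receptor, followed Cd79b more closely. Its values in C-G0 were −1.35, −0.11, −0.20 and 0.30. In LPS-G0 they were −0.21, −0.80, −0.19 and −0.43, the lowest mean (−0.41 ± 0.28). C-G1 had the highest mean, 0.05 ± 0.16. Cd22, the inhibitory lectin, had its lowest value in LPS-G0 replicate 1 (−1.58) and its highest in LPS-G2 replicate 4 (0.48). On slide 3, the only slide on which it was well above background, its 8 values lay between −0.18 and 0.48.

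Both probes of Fcrla had their lowest group mean in LPS-G0, −0.46 ± 0.18 for the brighter probe and −0.33 ± 0.18 for the second (n = 4), and the highest in C-G1. For the brighter probe the rats of LPS-G0 had −0.40, −0.58, −0.23 and −0.62, and those of C-G0 had −0.78, 0.25, 0.22 and 0.00. The groups overlapped for both probes. For the brighter probe this was through C-G0 replicate 1 alone, and the share of all probes that separate without that rat was not counted. For the second probe C-G0 replicate 3 (−0.26) also lay below LPS-G0 replicate 3 (−0.14).

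Pax5 ran the other way. LPS-G0 had its highest mean, 0.35 ± 0.27, from rats at 0.52, 0.61, 0.02 and 0.25. C-G1 had its lowest, −0.45 ± 0.54, from rats at 0.11, −1.02, −0.79 and −0.11. The slide moved with these values. On slide 1 the mean was 0.40 ± 0.25 (n = 8), on slide 2 it was −0.39 ± 0.37, and on slide 3 it was −0.06 ± 0.18. Over the 9 probes, neighbouring groups in the order of means were compared by 45 exact permutation tests. Of these, 0 had a p under 0.05 (the smallest was 0.114). The order came from the same values and neighbours have the closest means. These tests could therefore hardly find a difference, and no conclusion is drawn from them.

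The first comparison of the design asks what LPS did on the control diet. In LPS-G0 vs. C-G0, 0 of the 5 members tested had an adjusted p under 0.05 (limma over 10313 probes), and 1 had an unadjusted p under 0.05. The background was 1 probe, 0.0097% of those tested, and 15.2% at the unadjusted p. Tukey's HSD after analysis of variance called 0 members, here and in the other 8 comparisons of 2 groups, also without adjustment over probes. Ms4a1 was 1.88-fold lower on average, with a log2 fold change of −0.91 ± 0.35 (SE, limma, adjusted p = 0.255). The exact permutation p was 0.0857, where 4 against 4 arrays allow 0.0286 at the smallest. Fcrla had −0.38 ± 0.22 (adjusted p = 0.429). Cd79b had −0.00, with a 95% interval of −0.67 to 0.66, and Faim3 had −0.07, with an interval of −0.67 to 0.53. Pax5 had 0.20 (−0.31 to 0.71).

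The result of this comparison depended on single arrays of C-G0. Without C-G0 replicate 1, Ms4a1 had a log2 fold change of −1.20 ± 0.34 (limma, adjusted p = 0.0343) and Fcrla −0.61 ± 0.18 (adjusted p = 0.0447). Both were then called lower, 2 of 5 members, but the call also reached 11.1% of all probes (1140), and 2.85% as lower. Faim3 moved to −0.41, Cd79b to −0.38 and the second Fcrla probe to −0.32, and none of these passed (adjusted p between 0.225 and 0.292). The 2 probes of Fcrla thus differed in their call. When limma weighted the arrays by their residual spread, C-G0 replicate 1 had the lowest weight (0.16). Ms4a1 was then called at −1.26 (adjusted p = 0.024), and 1106 probes, 10.7% of all, were called with it. Leaving out C-G0 replicate 3 instead left Ms4a1 at −0.44 (adjusted p = 0.514). Within the slides the difference of Ms4a1 was −0.61, −1.93 and −0.47, lower on all 3, with slide 2 holding C-G0 replicate 3. Whether either array is a poor measurement was not tested.

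**Figure D2:**
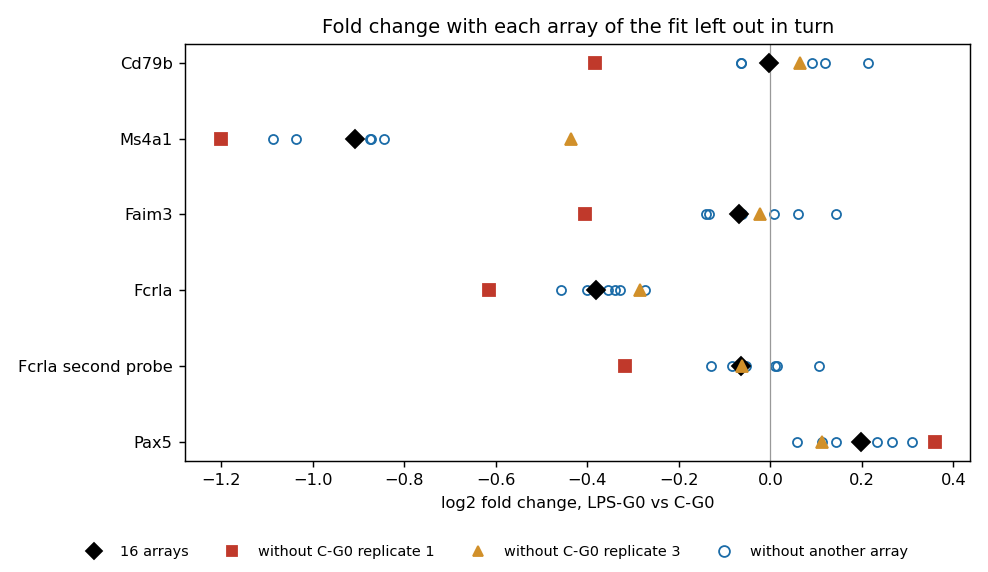
Log2 fold change in LPS-G0 vs. C-G0 for the 6 member probes of the 16-array fit, with all arrays (diamonds) and with each of the 16 arrays left out in turn. Without C-G0 replicate 1 (squares) the value of Ms4a1 moves from −0.91 to −1.20 and that of Cd79b from −0.00 to −0.38, and without C-G0 replicate 3 (triangles) Ms4a1 moves to −0.44.

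The markers of other blood cells moved too in LPS-G0 vs. C-G0. Of 7 tested markers of NK and cytotoxic cells, 7 had a log2 fold change above 0 (median 0.87) and 6 had an unadjusted p under 0.05, with 0 after adjustment. Their mean level ran from −1.40 to 0.01 in C-G0 and from −0.02 to 0.59 in LPS-G0. Of 5 neutrophil markers, 5 were below 0 (median −0.55), 3 of them at an unadjusted p under 0.05. The median over the 5 member genes was −0.07, and over all probes 0.03. What these cell markers have to do with the member values was not tested.

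The second question is what the beta-glucan diets did in rats given LPS. In LPS-G1 vs. LPS-G0, 0 of 5 members had an adjusted p under 0.05 and 0 an unadjusted p under 0.05, in a comparison that called 8.93% of all probes and 26.9% at the unadjusted p. Cd79b was 1.51-fold higher, at 0.60 ± 0.31 on the log2 scale (95% interval −0.06 to 1.26, limma adjusted p = 0.23). Its groups did not overlap, 1 of 5 members, beside 21.9% of all probes without overlap and 7.3% in this direction. The exact permutation p of 0.0286 is the smallest that 4 against 4 arrays allow, and it was the only 1 under 0.05 among 81 such tests of member probes. Within the slides the difference was 0.61, 0.58 and 0.36. Ms4a1 had 0.49 ± 0.35, Fcrla 0.30 ± 0.22, Faim3 0.23 ± 0.29 and Pax5 −0.38 ± 0.24, with adjusted p between 0.315 and 0.614. With slide as a block in the fit, Pax5 had −0.22. The median of the 5 members was 0.30, and that of all probes 0.06. Without LPS-G1 replicate 2 the median was 0.18, Fcrla had 0.18 and Faim3 0.08, and without other single arrays the median reached 0.42. Of the other cell lists, 2 of 9 erythroid and 1 of 7 NK and cytotoxic markers were called lower here, and their part in the member values was not tested. The mean erythroid level ran from 0.06 to 0.11 in LPS-G0 and from −0.55 to −0.05 in LPS-G1.

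In LPS-G2 vs. LPS-G0, 0 of 5 members had an adjusted or an unadjusted p under 0.05, and no probe of the array passed after adjustment (0 of 10313, with 8.23% at an unadjusted p under 0.05). The mean differences lay close to those of G1, in a comparison that shares the LPS-G0 arrays. Cd79b had 0.51 ± 0.31, Ms4a1 0.49 ± 0.35, Faim3 0.35 ± 0.29, Fcrla 0.32 ± 0.22 and Pax5 −0.36 ± 0.24 (limma adjusted p between 0.623 and 0.701). Within the slides the difference of Cd79b was 0.50, −0.11 and 0.79, so it was not higher on slide 2. Fcrla (−0.25) and Faim3 (−0.12) were not higher on slide 2 either, while Ms4a1 was higher on all 3 slides. The median of the members was 0.35, and that of all probes −0.02.

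The fractions of high and low molecular weight were compared directly in LPS-G1 vs. LPS-G2, where diet dose and time were the same. Differences of the 5 members lay between −0.13 (Faim3) and 0.09 (Cd79b), and 0 of 5 passed (0 of 10313 probes passed, 6.68% at an unadjusted p under 0.05). The intervals were −0.74 to 0.74 for Ms4a1, −0.58 to 0.75 for Cd79b, −0.53 to 0.49 for Pax5, −0.49 to 0.46 for Fcrla and −0.73 to 0.48 for Faim3. With 4 arrays per group, a difference between the fractions within these limits is not excluded.

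**Figure D3:**
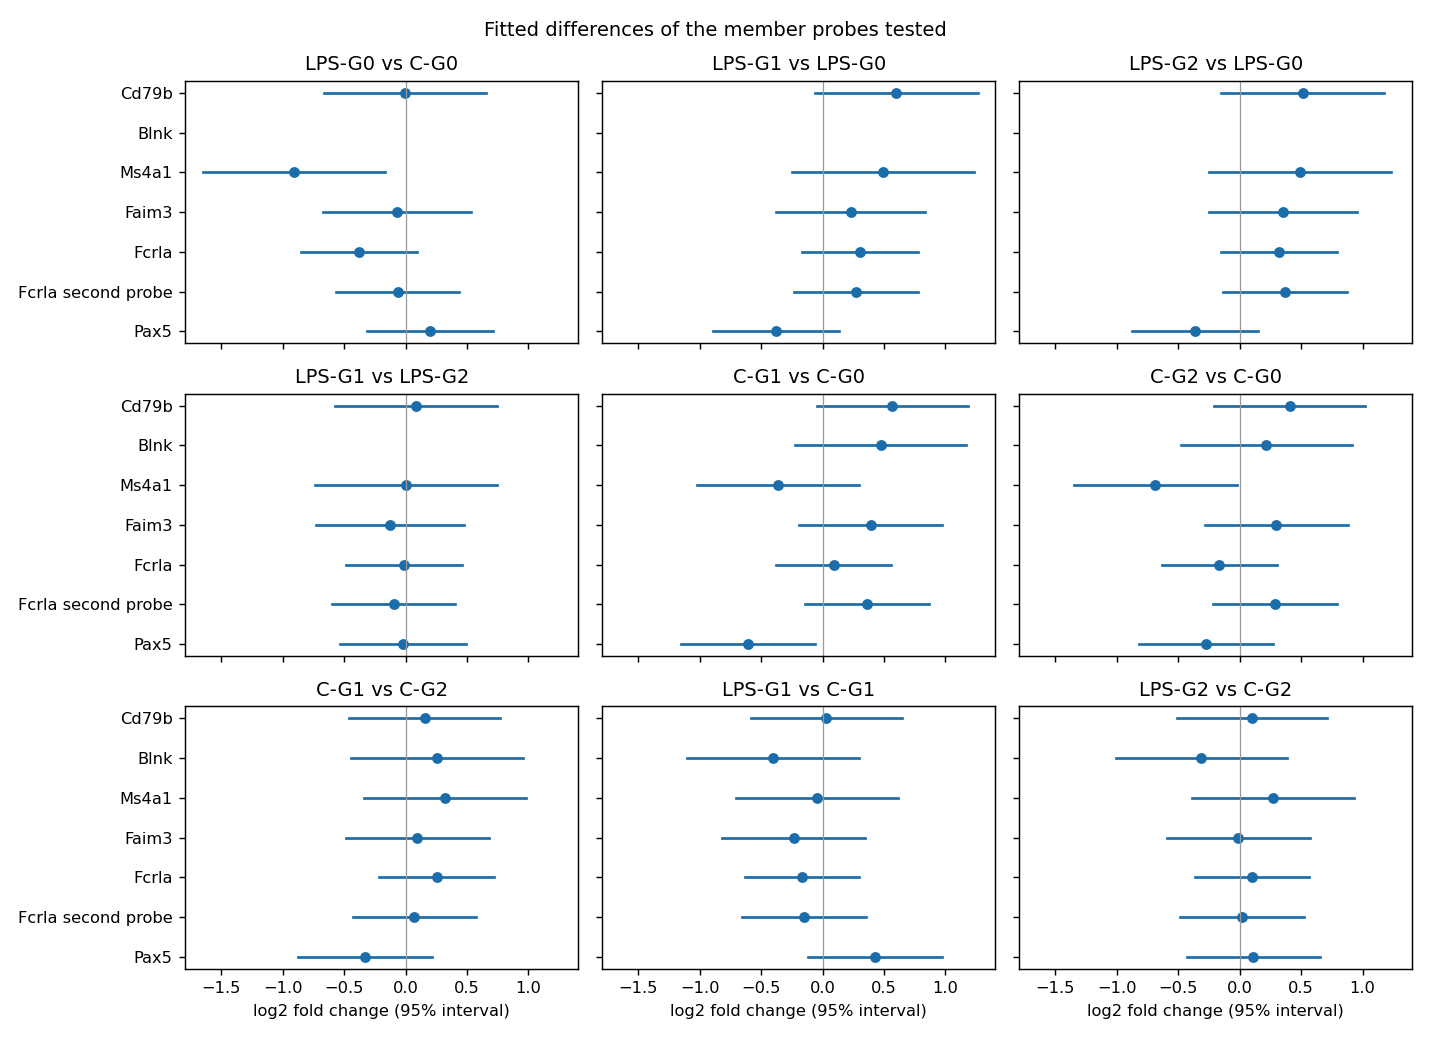
Log2 fold change of the member probes tested, with 95% intervals from limma, in the 9 comparisons of 2 groups (n = 4 arrays per group). Blnk is drawn only where it passed the filter, which it did through C-G1. Intervals exclude 0 for Ms4a1 in LPS-G0 vs. C-G0 and in C-G2 vs. C-G0 and for Pax5 in C-G1 vs. C-G0, and none of these passed after adjustment over all probes.

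In rats without LPS, the diets were compared in a fit of 24 arrays and 10708 probes. In C-G1 vs. C-G0, 0 of 5 members had an adjusted p under 0.05, in a comparison with 3 probes called (0.028%) and 27.9% at an unadjusted p under 0.05. Pax5 was 1.52-fold lower, at −0.60 ± 0.26 (limma, adjusted p = 0.153). Within the slides its difference was −0.39, −0.80 and 0.16, so it was not lower on slide 3. Cd79b had 0.57 ± 0.30 (adjusted p = 0.206) and Faim3 0.39 ± 0.28, and the value of Blnk was 0.47. Without C-G0 replicate 1, Cd79b had 0.19, Faim3 0.05, Blnk 0.17, Pax5 −0.44 and Ms4a1 −0.66, against −0.36 with all arrays, and the median of the 5 members went from 0.09 to −0.14. The positive values of Cd79b and Faim3 thus rested on that array for the most part. Beside Pax5, the erythroid markers lay lower in C-G1, though none passed after adjustment. Of the 9 tested, 7 were below 0 (median −0.64), and 4 of them had an unadjusted p under 0.05. Their mean level ran from −1.30 to −0.30 in C-G1 and from −0.26 to 0.15 in C-G0, and their part in the result was not tested.

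In C-G2 vs. C-G0, Ms4a1 was 1.61-fold lower, at −0.68 ± 0.32 (limma, adjusted p = 0.354), and 0 of 5 members passed (0.028% of all probes called). At an unadjusted p under 0.05 there was 1 of 5 members, beside 13.3% of all probes. The log2 fold change of Ms4a1 was −0.21 without C-G0 replicate 3 and −0.98 without C-G0 replicate 1 (limma, adjusted p = 0.26). The other 4 genes lay between −0.27 (Pax5) and 0.41 (Cd79b). Without C-G0 replicate 1, Cd79b had 0.03, Faim3 −0.04 and Fcrla −0.40. The 2 probes of Fcrla differed in sign here. With all arrays the brighter probe had −0.16 and the second 0.29, and without C-G0 replicate 1 the second had 0.04. In C-G1 vs. C-G2 the differences of the 5 genes lay between −0.33 (Pax5) and 0.32 (Ms4a1), with 0 of 5 called and 0 of 10708 probes. At an unadjusted p under 0.05 there were 0 members and 15.4% of all probes.

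LPS was also compared with saline on each beta-glucan diet. In LPS-G1 vs. C-G1, 0 of 5 members passed (0.00934% of probes called), and 0 had an unadjusted p under 0.05 (2.81% of probes). Pax5 had 0.42 ± 0.26, and the other 4 lay between −0.23 (Faim3) and 0.03 (Cd79b). In LPS-G2 vs. C-G2, 0 of 5 members and 0 of 10708 probes passed (unadjusted, 0 members and 1.09% of probes), with values between −0.01 (Faim3) and 0.27 (Ms4a1). The difference between the LPS responses was then tested itself. For Ms4a1 the response on G2 exceeded that on G0 by 1.18 ± 0.45 on the log2 scale (limma, unadjusted p = 0.0157, adjusted p = 0.832). The response on G1 exceeded it by 0.86 ± 0.45 (adjusted p = 0.999). Both share the response on G0. Without C-G0 replicate 3 the differences were 0.71 (G2) and 0.39 (G1), and without C-G0 replicate 1 they were 1.47 and 1.15. Without replicate 1 the median of the 5 members went from 0.11 to 0.49 for G2 and from 0.21 to 0.41 for G1. At an unadjusted p under 0.05 there were 1 of 5 members for G2, beside 5.57% of all probes, and 0 of 5 for G1, beside 3.01%. After adjustment 0 members and 0 probes passed in either.

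Across the 24 arrays, most of the genes varied together. As a description, Pearson's r was 0.91 between Cd79b and Faim3, 0.93 between Cd79b and the second Fcrla probe, and 0.94 between that probe and Faim3. It was 0.69 between Cd79b and Blnk and 0.77 between Faim3 and Blnk. The points share the reference RNA and the slides, and C-G0 replicate 1 lies at the low end of all these genes. Without that array Cd79b and Faim3 had r = 0.85, and within slides 0.89. From the Cy3 signal alone, after removal of each array's mean, r was 0.70.

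Pax5, and less clearly Ms4a1, differed from this pattern. Pax5 had negative r with 7 of the 8 other probes, between −0.44 (Cd79b) and −0.29 (Blnk), and 0.10 with Blk. Within slides its r with Cd79b was −0.27 and with Ms4a1 0.05. From the Cy3 signal alone the 8 values lay between −0.59 (Ms4a1) and 0.23 (Faim3), with Cd79b at −0.37. Its r with the mean erythroid level over the 24 arrays was 0.70, where Cd79b had −0.50. Ms4a1 had r = 0.70 with the brighter Fcrla probe and 0.26 from the Cy3 signal alone. With Cd79b it had r = 0.31, 0.51 from the Cy3 signal alone and 0.58 without the 2 arrays farthest from the median of Ms4a1. With the mean of the other members, r was 0.86 for Faim3, 0.82 for Cd79b, 0.25 for Ms4a1 and −0.40 for Pax5.

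**Figure D4:**
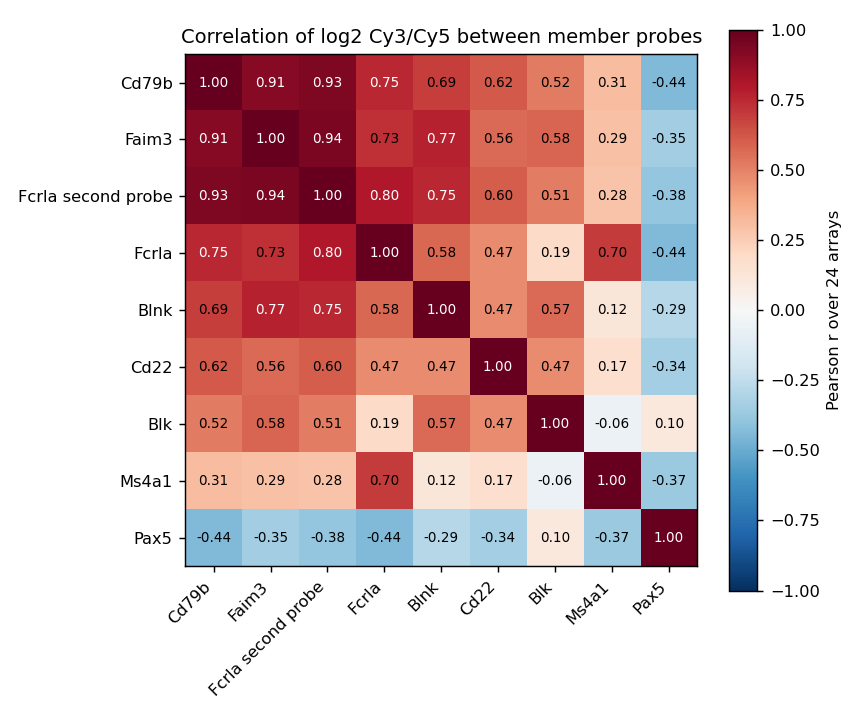
Pearson's r between the 9 member probes over 24 arrays, from the log2 ratio of rat over reference, from −1 (blue) to 1 (red). Cd79b, Faim3 and both Fcrla probes have r between 0.73 and 0.94, Ms4a1 has 0.31 with Cd79b, and Pax5 is negative with all but Blk.

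Among the other genes of the array, those with the pattern most like the mean of the 8 members were ranked by Pearson's r over 24 arrays. Of the leading 8, 3 have a gene symbol. Pou2af1, a coactivator of octamer-binding factors in B cells, had r = 0.87 (0.75 without the 2 arrays farthest from the median). Cd74, the invariant chain of MHC class II, had 0.87, and Fgd2, an exchange factor of Cdc42, had 0.85. The other 5 probes carry only transcript or probe names. When the mean was taken over the 6 members of the 24-array fit, Pou2af1 came first at 0.91.

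A wider list of genes of B cell receptor signalling held 25 genes, of which 19 were tested in each comparison, and a list of B cell identity genes held 27, of which 14 or 15 were tested. Genes were called at an adjusted p under 0.05. In LPS-G1 vs. LPS-G0, 0 of the 19 signalling genes were called higher and 1 was called lower, beside 8.39% of all probes called lower. It was Vav3, a guanine nucleotide exchange factor, at −1.12 ± 0.19 (limma, adjusted p = 0.0289). The rats of LPS-G0 had 0.00, 0.01, 0.43 and 0.51, those of LPS-G1 −0.66, −1.03, −0.84 and −1.01, and all 4 rats of C-G0 lay between −0.83 and −0.29. LPS-G0 was thus above both of the other groups for this probe. In LPS-G0 vs. C-G0 the probe had 0.71 and did not pass (limma, adjusted p = 0.218). There 5.04% of all probes did not overlap, and 3.83% in this direction. In LPS-G1 vs. LPS-G0, 14.6% of all probes were lower without overlap. In that comparison a second, dimmer probe of Vav3 had 0.29 ± 0.45 (limma, adjusted p = 0.688), so the probes of Vav3 disagree. Of the 14 identity genes tested there, 1 was called higher, beside 0.543% of all probes called higher, and 0 were called lower.

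The identity gene called higher was Cd40, the receptor through which T cells help B cells, at 1.01 ± 0.27 (limma, adjusted p = 0.0328). The rats of LPS-G0 had −0.66, −0.48, −0.51 and −0.81, and those of LPS-G1 −0.13, 0.48, 0.69 and 0.52, with no overlap. In this direction 7.3% of all probes did not overlap. In LPS-G2 vs. LPS-G0 Cd40 had 0.85 (limma, adjusted p = 0.597), and in LPS-G1 vs. LPS-G2 it had 0.16 (adjusted p = 0.863). A second probe of Cd40 was well above background on 3 arrays and was not tested. The adjusted p of Cd40 was 0.062 once slide entered the fit as a block. Both calls held without any 1 array of C-G0 or LPS-G2, which are not part of this comparison. Leaving out 1 array of the groups compared lost each call in most cases. Cd40 did not pass without any 1 of LPS-G0 replicates 1, 2 and 4 and LPS-G1 replicates 2, 3 and 4 (adjusted p from 0.0637 to 0.109, log2 fold change from 0.91 to 1.05). Vav3 did not pass without any 1 of LPS-G0 replicates 1 and 4 and LPS-G1 replicates 2, 3 and 4 (adjusted p from 0.0598 to 0.104, log2 fold change from −1.20 to −1.03). The medians of the lists in LPS-G1 vs. LPS-G0 were 0.27 (signalling) and 0.29 (identity), beside 0.06 for all probes. In the other 10 comparisons 0 genes of either list passed. At an unadjusted p under 0.05, 7 of 19 signalling genes were higher and 0 lower in C-G1 vs. C-G0, beside 12.1% of all probes higher. Among them were Syk (0.41), Plcg2 (0.63) and Inpp5d (0.56), a kinase, a phospholipase and a phosphatase of the pathway, and Cd81 (1.04), a tetraspanin of the cell surface. Of the 15 identity genes 1 was higher, Cd40 at 0.66 (limma, adjusted p = 0.17), and 1 was lower. The lower one was Bcl11a, a transcription factor of early lymphoid cells, at −0.88 (unadjusted p = 0.000521, adjusted p = 0.104). Without C-G0 replicate 1, 1 of 19 signalling genes was higher, beside 2.48% of all probes, and 0 of 15 identity genes were higher and 2 lower, beside 7.89% of all probes lower. C-G0 replicate 1 had the lowest mean of the signalling list, −0.62, where the other C-G0 rats reached 0.08.

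**Figure D5:**
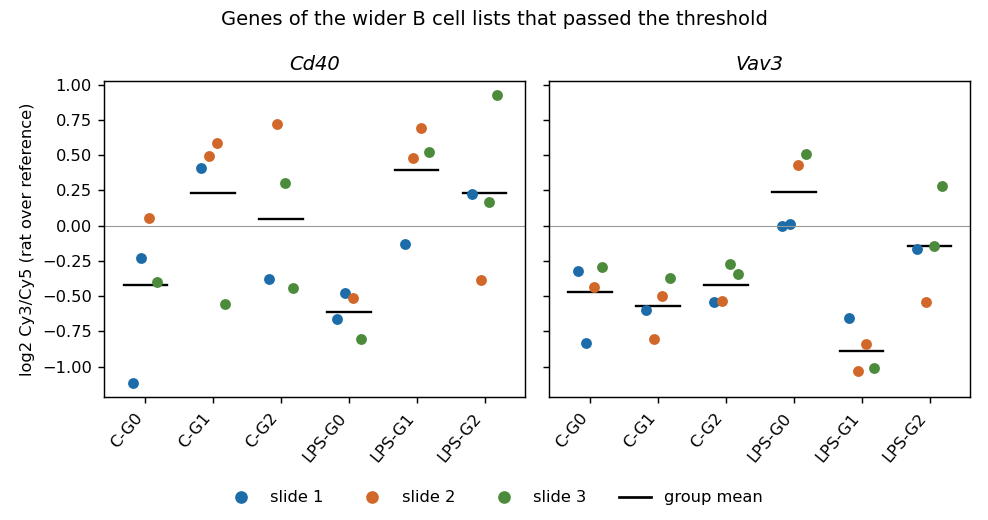
Log2 ratio of rat over reference for Cd40 and for the brighter probe of Vav3, by group, with 1 point per array (n = 4 per group) coloured by slide and bars at the group means. The 4 rats of LPS-G1 lie above those of LPS-G0 for Cd40 and below them for Vav3.

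Markers of the other cells of blood were measured on the same arrays. Of the T cell markers, 11 of 16 with a probe were well above background on all 24 arrays, and Cd28 on none. The same held for 9 of 9 erythroid markers with a probe, 6 of 9 monocyte markers, 5 of 11 neutrophil markers (Ltf on none), 4 of 10 NK and cytotoxic markers, 7 of 9 platelet markers (Gp6 on none) and 1 of 6 plasma cell markers with a probe (Sdc1 and Tnfrsf17 on none). As a description over the 24 arrays, the mean of the 8 members had r = 0.56 with the mean T cell level, 0.20 with the monocyte level, 0.03 with the neutrophil level and −0.35 with the erythroid level. The r with the NK and cytotoxic level was 0.02. Without C-G0 replicate 1 the r with T cells was 0.46 and that with NK and cytotoxic cells −0.64.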

How the data were processed

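Per the labels and file headers, the authors deposited, for each of 24 arrays, Agilent Feature Extraction output with processed intensities of both channels and a log10 ratio, background subtracted and dye-balanced by Lowess. Its version is 10.7.3.1 in the submitters' processing notes and another in the headers. A deposited table of log10 ratios was identical in 1511424 of 1511424 values. The labels put the rat RNA in Cy3, the methods in Cy5. The labels were followed. The SD within groups was larger in Cy3 for 95.3% of 7074 bright probes (median 0.38 against 0.26, log2). Control and outlier spots were left out, and spots of a probe were averaged (58717 spots, 30367 probes). A probe was tested where all 4 arrays of at least 1 group had it well above background in Cy3. Tests were made with limma 3.58.1 in R 4.3.3, two-sided, with Benjamini-Hochberg adjustment, and single values by an exact permutation test over 70 arrangements. The 3 LPS groups and C-G0 (16 arrays) shared a fit for the 4 comparisons among them, and the others used all 24 arrays. The brightest passing probe stood for a gene. Named beside the members were genes of the wider B cell lists with an adjusted p under 0.05 (at most 12 per comparison) and the 8 genes most alike. Genes below the threshold that are given as examples were chosen after their values were seen. The members and lists were chosen with earlier results of these data known. The number of arrays limits the precision, and depth does not apply. Nothing in the labels ties replicate numbers to a litter or day, and arrays were not paired by number. Deviations from the group means in arrays that share a number correlated at 0.11 on average and at −0.31 at the lowest. With different numbers the average was −0.04. On the same slide it was 0.11, and on different slides −0.05. Replicate 1 of every group lay on slide 1 and replicate 4 on slide 3, so number and slide are partly tied. Fits with either as a block are given below.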

Additional observations from a re-analysis of the deposited data

Results flagged for a closer look

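In 54 groups of 4 arrays (9 probes in 6 groups), 4 had 1 value far from the other 3, by the ratio of its gap to the whole range of the group (Dixon's ratio). Chance gives about 1 in 20 groups. Ms4a1 in LPS-G0 replicate 3 was at 0.052, with the next rat at −0.43, and that array is among those with conflicting labels. Fcrla in C-G1 replicate 2 was at 0.32, with the next at −0.07. Fcrla in C-G2 replicate 1 was at −0.83, with the next at −0.11, and Cd79b (−0.56), Faim3 (−0.72) and Blnk (−0.92) were lowest of their group on the same array. Blnk in LPS-G0 replicate 2 was at −0.87, with the next at −0.18, where 2 of 4 arrays had Blnk well above background. The values of C-G0 replicates 1 and 3 did not pass this test.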

How the results depend on the processing

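The number of members called and their median fold change were recomputed for the 11 comparisons under every other choice of processing listed for them. The count stayed at 0 except in LPS-G0 vs. C-G0, where it was 1 with array weights (Ms4a1) and 0 to 2 when each array was left out in turn (2 without C-G0 replicate 1). Analysis of variance and Tukey's HSD, the test of the study's methods, gave a count of 0 in all 9 comparisons of 2 groups. When each array was left out in turn the median fold change ran from −0.41 to 0.061 in LPS-G0 vs. C-G0, and from −0.073 to 0.44 in the difference of the LPS responses on G2 and G0 (Blnk included), the largest move in each coming without C-G0 replicate 1. The median changed sign with the loss of some single array in 9 of 11 comparisons, all but LPS-G1 and LPS-G2 vs. LPS-G0. With the replicate block or slide as a block the count was 0 in every comparison, and the median in LPS-G1 vs. LPS-G0 was 0.30 with the replicate block and 0.26 with slide as a block. Without the filter on dim probes, Cd22, Blk and Blnk entered every fit and were not called. Without LPS-G0 replicates 3 and 4, no member was called, and neither Cd40 (adjusted p = 0.153) nor Vav3 (0.127) passed in LPS-G1 vs. LPS-G0. Averaged over its 2 probes, Vav3 had −0.42 (adjusted p = 0.29). The alternatives for Cd40 and Vav3 were chosen after seeing the data, and over them all, 22 of 58 values lost the call. The 58 values include fits that left out an array of a group not compared.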
